A study of Mus musculus with 12 samples.

Results

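The regions described here are 641 wild-type H2A.Z peaks at the ends of protein-coding genes that overlapped an INO80 peak and were touched by no H2A.Z peak of Ino80-deleted cells. They were chosen by the peak positions themselves, from 33827 wild-type H2A.Z peaks, under 4 conditions: a width of at most 0.72 kb, no overlap (1 bp) with the knockout H2A.Z list, overlap with the INO80 list, and a position within 1 kb of the start or the end that RefSeq gives for a protein-coding gene (GRCm38.p6, the assembly that mm10 names). Of all wild-type peaks, 30.1% had no overlapping knockout peak. The label "promoter" was checked against strand and start sites: of the 514 peaks whose nearest gene end could be given a strand, 460 (89.5%) lay nearest a 5′ end, so about 1 in 10 lay at the 3′ end of a gene. Because presence in the lists chose these peaks, their widths, their INO80 overlap and their distances to knockout peaks are descriptions and carry no test.

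The study made ChIP-seq libraries of spermatogenic cells from mouse testes at postnatal day 18, on a mixed strain background. H2A.Z was precipitated from cells with intact Ino80 (Ino80WT) and from cells of Ino80cKO testes, where Ino80 was deleted with Stra8-Cre, a recombinase that becomes active in spermatogonia. INO80 was precipitated from wild-type cells. Each of the 3 ChIP groups has 2 libraries and 1 deposited peak list of positions without heights, which leaves every value here without a replicate error and with an unknown read depth. Cells in which Stra8-Cre does not act, such as Sertoli cells, would keep Ino80, and peak positions alone cannot show that Ino80 was lost. The labels do not say whether the Ino80WT mice carry the Cre or from how many animals each group's cells were taken. A smaller share of a cell type in the knockout suspension and less H2A.Z per cell cannot be told apart. Of 6 germ cell markers, 4 held wild-type H2A.Z at an end (Ddx4, Dazl, Dmc1, Zbtb16), as did 4 of 4 Sertoli cell markers, 1 of 2 peritubular cell markers (Myh11), 0 of 3 Leydig cell markers and 0 of 2 macrophage markers. In a longer list of somatic testis cell genes 16 of 38 held it. A peak does not measure expression.

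The histone variant H2A.Z marks the nucleosomes flanking the nucleosome-poor region of active and poised promoters. SRCAP and EP400 complexes place it in chromatin, and the INO80 complex, whose ATPase is INO80, slides nucleosomes and has been linked to the exchange and distribution of H2A.Z. YY1 is a DNA-binding protein that copurifies with the mammalian INO80 complex. At postnatal day 18 the first wave of mouse germ cells has reached meiotic prophase, when the X and Y chromosomes are silenced in the sex body.

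The promoter windows of 6 named genes, those most covered by a wild-type-only peak, are printed as examples and do not stand for the set. Each runs 5′ to 3′ on the gene's strand from 250 bases before to 50 bases after a RefSeq start site (GRCm38.p6). Maged1, Ndufb11 and Eif2s3x are X-linked. Over all these peaks near a start site the median centre was 151 bp into the gene, past the end of such a window. Capitals mark exact matches, on either strand, to the strings searched. The GC box, bound by Sp1 and related factors, was searched as GGGCGG. The box bound by NF-Y was searched as its letters CCAAT. The core string of YY1 was GCCATNTT, and the cAMP response element was TGACGTCA. The string of the ETS family of factors was CCGGAAG. The E-box of Myc and its relatives was searched as CACGTG. The TATA box was searched with the letters TATAAA. GC box matches can overlap each other.
Maged1 (chrX:94541976-94542275, minus strand): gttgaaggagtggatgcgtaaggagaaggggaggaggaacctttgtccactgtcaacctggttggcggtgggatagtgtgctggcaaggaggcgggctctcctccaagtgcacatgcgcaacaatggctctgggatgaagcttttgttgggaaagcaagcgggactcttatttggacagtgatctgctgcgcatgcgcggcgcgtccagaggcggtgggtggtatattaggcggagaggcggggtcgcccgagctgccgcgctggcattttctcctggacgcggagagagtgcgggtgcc
Hic1 (chr11:75170206-75170505, minus strand): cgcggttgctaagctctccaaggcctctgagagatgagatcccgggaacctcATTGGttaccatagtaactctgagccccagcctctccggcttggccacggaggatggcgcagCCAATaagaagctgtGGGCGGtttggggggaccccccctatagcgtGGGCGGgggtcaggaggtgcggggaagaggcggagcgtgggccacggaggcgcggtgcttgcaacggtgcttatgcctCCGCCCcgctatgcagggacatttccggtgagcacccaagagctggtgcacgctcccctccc
Yy1 (chr12:108793047-108793346, plus strand): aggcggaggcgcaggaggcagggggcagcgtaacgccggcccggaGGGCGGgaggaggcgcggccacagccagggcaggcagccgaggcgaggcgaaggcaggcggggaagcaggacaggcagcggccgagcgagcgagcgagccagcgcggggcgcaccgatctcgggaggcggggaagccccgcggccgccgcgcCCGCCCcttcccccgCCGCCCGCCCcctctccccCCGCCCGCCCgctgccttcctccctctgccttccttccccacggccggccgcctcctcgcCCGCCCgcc
Ndufb11 (chrX:20617570-20617869, minus strand): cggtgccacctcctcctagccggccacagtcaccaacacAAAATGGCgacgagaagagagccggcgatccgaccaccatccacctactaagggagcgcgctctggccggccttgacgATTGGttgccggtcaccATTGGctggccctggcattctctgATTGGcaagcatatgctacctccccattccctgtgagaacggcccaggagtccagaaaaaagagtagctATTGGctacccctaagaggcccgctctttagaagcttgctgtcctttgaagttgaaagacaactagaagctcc
Neurod1 (chr2:79456587-79456886, minus strand): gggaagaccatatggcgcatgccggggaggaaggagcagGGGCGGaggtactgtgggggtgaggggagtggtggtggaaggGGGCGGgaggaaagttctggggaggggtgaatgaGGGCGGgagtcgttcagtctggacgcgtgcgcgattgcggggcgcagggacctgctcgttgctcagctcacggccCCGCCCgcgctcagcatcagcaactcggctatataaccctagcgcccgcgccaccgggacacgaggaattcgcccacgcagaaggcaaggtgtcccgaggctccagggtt
Eif2s3x (chrX:94212602-94212901, minus strand): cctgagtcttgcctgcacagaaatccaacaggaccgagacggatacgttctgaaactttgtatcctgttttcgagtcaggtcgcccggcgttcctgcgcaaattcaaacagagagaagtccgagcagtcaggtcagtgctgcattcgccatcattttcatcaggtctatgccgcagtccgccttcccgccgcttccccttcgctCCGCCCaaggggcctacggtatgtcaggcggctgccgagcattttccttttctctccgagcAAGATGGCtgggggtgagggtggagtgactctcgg
The Maged1 window lay wholly inside its 688 bp peak and held none of these strings, 82.7% of the Hic1 window lay inside a 388 bp peak, and 77.7% of the Yy1 window inside a 233 bp peak. The Yy1 window was 81.0% G and C with 42 CpG dinucleotides and 7 GC box matches. The Ndufb11 window held 4 CCAAT matches and a YY1 match, and the Eif2s3x window a YY1 match that begins 16 bases into the transcribed sequence.

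CpG content set these promoters apart from those of wild-type-only peaks without INO80, and no difference from shared promoters passed the test. A promoter was called CpG-rich when its 300 bp window had at least 50% G and C and an observed over expected CpG ratio of at least 0.6. Of 435 peaks within 1 kb of the table's start site of their gene, 326 (74.9%) had a CpG-rich promoter. Among peaks of the same width limit at gene ends that also lacked a knockout peak but held no INO80 (979 peaks, 551 of them near a start site), the share was 42.8%. The odds ratio was 3.99 (95% interval 3.01 to 5.31, Fisher's exact test, two-sided, adjusted p = 1.67e-23). Among gene-end peaks with INO80 that did overlap a knockout peak (3966 peaks, called shared, 2952 near a start site), the share was 76.8% (odds ratio 0.906, interval 0.714 to 1.15, Fisher's exact test, adjusted p = 0.397). P-values in all such comparisons are adjusted over 9 comparisons (Benjamini-Hochberg). They compare sets of peaks and not animals, and they treat neighbouring peaks as independent. When knockout peaks within 500 bp also counted as partners, the first odds ratio was 6.49 and the second 0.674 (Fisher's exact test, adjusted p = 0.00964). With a stricter definition (a ratio of at least 0.75 and at least 55% G and C) the first was 4.01. The second was then 1.24 (56.1% against 50.9%, Fisher's exact test, adjusted p = 0.0579), so its direction depended on the setting.

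Matches to the YY1 string were found in 58 of 427 distinct promoter windows of these peaks (13.6%). The same string was found in 11% of 2790 windows of shared peaks, 4.96% of 544 windows of wild-type-only peaks without INO80 and 6.37% of all 21263 promoter windows of protein-coding genes. GC box matches stood in 73.1% of the windows, against 69.8% (shared), 49.1% (without INO80) and 46.2% (all). The TATA string stood in 8.20% of the windows, against 7.89% (shared), 6.99% (without INO80) and 12.6% (all). In the same order, the ETS string stood in 16.2%, against 19.4%, 15.6% and 11.6%. The E-box stood in 11.7%, against 12.3%, 9.93% and 7.84%. For the CCAAT string the share was 41.5%, against 42.8%, 47.8% and 38.2%. The cAMP response element stood in 3.98%, against 3.76% (shared), 2.76% (without INO80) and 2.23% (all). These shares are descriptions of letters in a window, without a test, and 74.5% of these windows but 45.1% of all windows were CpG-rich.

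The peaks were narrow. Their widths ran from 147 bp, the smallest width in each list, to 705 bp, with a median of 245 bp, and 214 of them (33.4%) were under 200 bp, about the length of DNA on a nucleosome with its linker. The median for shared peaks under the same limit was 475 bp and for wild-type-only peaks without INO80 207 bp. In the whole wild-type list the median peak of this group stood at percentile 23.6 by width. Of all wild-type peaks within the width limit, 42.0% had no overlapping knockout peak. At gene ends this was 37.2% of peaks without INO80 and 13.9% of the 4607 peaks with INO80, the 641 described here. The lists give no heights, so how much less signal the knockout had at a peak cannot be read from them. The widest just inside the limit were those at Nacad (705 bp), Nlrp12 (704 bp), Wnk1 and Maged1 (688 bp each) and Atp5d (687 bp). Just outside it were Surf6 (733 bp), Cox18 (734 bp), Ihh (739 bp), Prdx6b (753 bp) and Sowahd (756 bp). In all, 39 peaks that met every other condition were wider than the limit.

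Most of these peaks lay inside their INO80 peak. The 641 peaks overlapped 619 INO80 peaks, of which 22 held 2 of them, and 423 of the 641 (66.0%) were wholly covered by INO80. The INO80 peaks had a median width of 1039 bp (quartiles 439 and 1781 bp). Of the peaks, 414 (64.6%) overlapped an INO80 peak wider than the median of the INO80 list (678 bp), against 45.1% of shared peaks, and without an upper limit on H2A.Z width in either set the shares were 65.0% and 60.2%. Since overlap with INO80 chose the peaks, these shares are descriptions. The centre of the H2A.Z peak lay a median of 200 bp from the INO80 centre, against 99 bp for shared peaks.

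The knockout list divided the peaks into 2 situations. An INO80 peak that reaches both a wild-type-only peak and a separate knockout peak must span the gap between them, so its greater width, the shorter gap and the off-centre position follow in part from the division. Of all 15051 INO80 peaks with wild-type H2A.Z, 1205 overlapped no knockout H2A.Z peak, and 405 of these held peaks of this set. The share that follows is bound to the rule, which took only peaks without a knockout partner. At 423 peaks (66.0%) the INO80 peak overlapped no knockout H2A.Z peak. Here the INO80 peak was narrow (median 625 bp), it held no other wild-type H2A.Z peak in 375 cases (88.7%), and the nearest knockout peak was a median of 9742 bp away. At the other 218 (34.0%) the same INO80 peak also spanned a knockout H2A.Z peak. There INO80 was wide (median 1757 bp), the wild-type-only peak lay a median of 478 bp from its centre, and the nearest knockout peak was a median of 369 bp away. In 184 of these 218 (84.4%) that nearest knockout peak overlapped another wild-type peak, so that a larger H2A.Z peak (medians of 559 bp for wild-type and 421 bp for knockout cells) stood beside a smaller one (median 223 bp) listed in the wild type alone. Over all 641 peaks a knockout peak lay within 500 bp of 217 (33.9%) and no knockout peak within 10 kb of 209 (32.6%). The plot of INO80 width against this gap shows both situations.

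**Figure D1:**
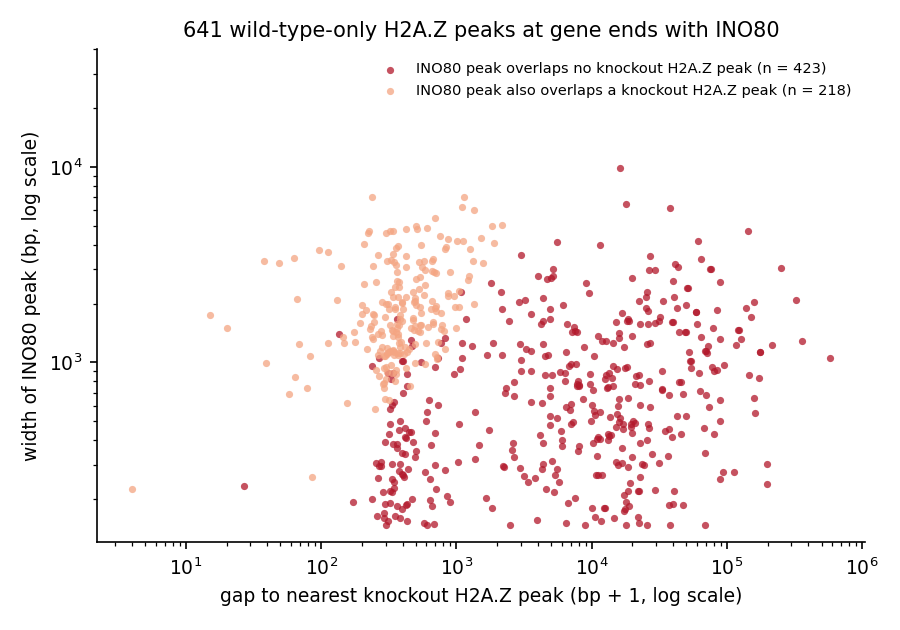
Each point is 1 of the 641 wild-type-only H2A.Z peaks with INO80 at a gene end; the x axis gives the gap to the nearest knockout H2A.Z peak (bp + 1, log scale) and the y axis the width of the overlapping INO80 peak (bp, log scale). The 218 light points, whose INO80 peak also overlaps a knockout peak, gather at gaps near their median of 369 bp and at wide INO80 peaks, and the 423 dark points spread over gaps of up to 579260 bp.

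Around the start site, the 2 situations had these positions. Of 287 peaks near a start site whose INO80 peak overlapped no knockout peak, 182 (63.4%) had their centre 0 to 400 bp into the gene, where the first nucleosomes after the start site lie. Of 148 such peaks whose INO80 peak also held knockout H2A.Z, 40 (27.0%) lay there, 42 (28.4%) lay more than 300 bp upstream and 38 (25.7%) more than 400 bp into the gene. Over all 435 peaks the share 0 to 400 bp into the gene was 51.0%, against 70.0% of shared peaks and 34.5% of wild-type-only peaks without INO80. The median centre was 151 bp into the gene, 182 bp for shared peaks and 40 bp upstream (-40 bp) for peaks without INO80. These positions were compared without a test. The rule bars wild-type-only peaks from any place that holds a knockout peak. Where the INO80 peak also held knockout H2A.Z, their positions thus follow in part from the rule and the division.

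**Figure D2:**
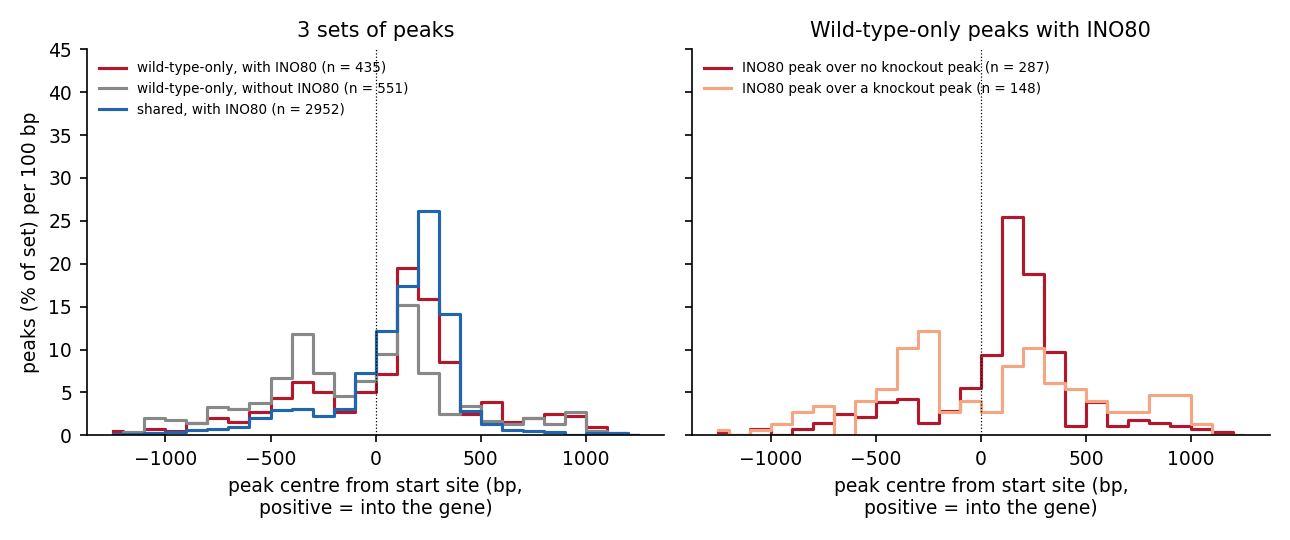
Peak centres around RefSeq start sites, as the percentage of each set per 100 bp, with positive distances into the gene; the left panel shows the 3 sets of gene-end peaks and the right panel the wild-type-only peaks with INO80 by whether their INO80 peak overlaps a knockout H2A.Z peak. The 287 peaks without knockout H2A.Z under INO80 gather between 0 and 400 bp into the gene, whereas the other 148 spread to both sides. The rule bars wild-type-only peaks from places with a knockout peak, so this contrast is bound to it.

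The nearest gene end was a 5′ end more often than for wild-type-only peaks without INO80 and less often than for shared peaks. The share of 89.5% (460 of 514) stood against 79.7% without INO80 (odds ratio 2.17, 1.54 to 3.08, Fisher's exact test, adjusted p = 5.40e-06; 3.94 among peaks of at least 300 bp) and 95.8% among shared peaks (odds ratio 0.374, 0.266 to 0.531, adjusted p = 1.54e-07). Peaks within 1 kb of the ends of more than 1 protein-coding gene, such as divergent pairs, were 118 of 641 (18.4%), against 10.9% without INO80 (odds ratio 1.84, 1.37 to 2.47, Fisher's exact test, adjusted p = 4.79e-05) and 16.8% of shared peaks (odds ratio 1.11, 0.889 to 1.39, adjusted p = 0.378). Such a peak cannot be assigned to 1 gene. Among these pairs were Ino80b with Wbp1, Brca1 with Nbr1, Ino80e with Hirip3, Mrps12 with Sars2 and Rbbp4 with Zbtb8os.

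**Figure D3:**
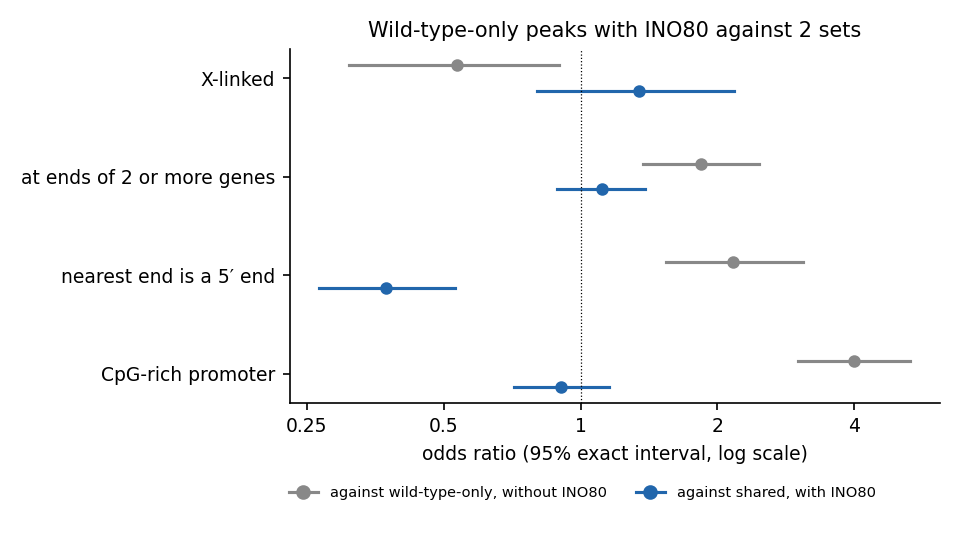
Odds ratios (points) with exact 95% intervals (lines) on a log scale for 4 properties of the wild-type-only peaks with INO80, against wild-type-only peaks without INO80 (grey) and shared peaks with INO80 (blue). The CpG-rich share stands at 3.99 against the grey set and 0.906 against the blue set, and the share nearest a 5′ end lies above 1 against the first and below 1 against the second.

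Genes that encode the machinery itself carried such peaks. Of 27 genes of the INO80 and SRCAP complexes and of H2A.Z handling, 5 had one at an end (18.5%), against 3.29% of all 21887 protein-coding genes. Among the 23 listed genes with both wild-type H2A.Z and INO80 at an end the share was 21.7%, against 6.24% over all 11483 such genes. This list and the others below are selections that do not hold every gene of their group. They were written with earlier results of these data known and are described by counts alone. At Ino80 itself (chromosome 2) a 161 bp peak (119478123 to 119478283), centred 516 bp upstream of the start site (-516 bp), lay under a 1390 bp INO80 peak and 263 bp from a knockout H2A.Z peak. Beside it stood a larger wild-type peak of 863 bp, which the knockout peak of 487 bp overlapped. At H2az1, which encodes H2A.Z.1, a 147 bp peak (chromosome 3, 137864646 to 137864792) lay 232 bp into the gene and 294 bp from the knockout peak of that promoter (483 bp, overlapping a wild-type peak of 372 bp). A 794 bp wild-type peak near the 3′ end of H2az1, with a 962 bp INO80 peak, also had no knockout partner, but it was too wide for the set. At Yy1 the 233 bp peak (chromosome 12, 108793062 to 108793294) sat under a 2612 bp INO80 peak, 362 bp from a knockout peak. Ino80b and Ino80e, which encode subunits of the complex, carried peaks of 167 and 245 bp. All 5 genes kept a knockout H2A.Z peak within 1 kb of an end. H2az2 carried no wild-type-only peak: its wild-type peaks of 262 and 150 bp each overlapped a knockout peak (247 and 147 bp).

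Among chromatin regulators, 3 of 31 listed histone methylation enzymes had such a peak (9.68%, and 10.7% of the 28 with H2A.Z and INO80): the H3K4 methyltransferase genes Kmt2b (310 bp) and Setd1a (227 bp) and the H3K4 demethylase gene Kdm5c (212 bp). The nearest knockout peak was 535 bp from the Kmt2b peak and 147 bp from the Setd1a peak, but 88726 bp from the Kdm5c peak. The demethylase gene Phf8, described with the X chromosome, was not on the list. Listed polycomb genes had 2 of 36, which is 6.06% of the 33 with H2A.Z and INO80, near the 6.24% over all such genes: Rbbp4, a histone-binding subunit of several complexes (207 bp), and Cbx8, a PRC1 subunit (186 bp, at the 3′ end).

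Of 40 listed cytosolic ribosomal protein genes, 6 had such a peak (15%, and 16.7% of the 36 with H2A.Z and INO80), and 3 of the 6, Rpl24 and Rpl6 among them, had no knockout peak within 1 kb of an end. Some genes of the family that the list leaves out also carried such peaks, with no knockout peak at an end: Rpl21 (400 bp), Rpl7a (237 bp), Fau (173 bp), Rpl27a (163 bp) and Rps26 (152 bp). The Rpl7a peak also lies at an end of Med22 and the Fau peak at an end of Mrpl49. Unlisted genes of the family without such a peak were not counted. The peaks of Rpl24 (296 bp) and Rpl6 (159 bp) were 7250 and 13424 bp from the nearest knockout peak. That of Rps16 (333 bp) had one 253 bp away and that of Rps18 (165 bp), which also lies at an end of Vps52, one 273 bp away. The Rpl4 peak (319 bp), which also lies at an end of Zwilch, was 6493 bp from the nearest knockout peak, which stood at the other end of Rpl4. The INO80 peaks at the 6 listed genes ran from 151 bp at Rpl4 to 1150 bp at Rps18. In the list of 40 genes of mitochondrial ribosomes and the respiratory chain, Mrps12 (240 bp) and Mrps23 (162 bp) had one (5.71% of the 35 with H2A.Z and INO80). Atp5d, an ATP synthase gene, and Ndufb11, a gene of the respiratory chain, carried such peaks and were not on it. The peaks of Mrps23, Atp5d and Ndufb11 also lie at an end of Cuedc1, Cbarp and Rbm10, in that order.

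Developmental regulators had 7 of 70 (10%, and 13% of the 54 with H2A.Z and INO80, against 6.24% over all such genes). The peaks measured 617 bp at Nkx2-2, 428 bp at Nkx2-5, 247 bp at Neurod1, 232 bp at Hoxc10, 207 bp at Hoxa3, 198 bp at Hoxa10 and 168 bp at Nkx2-1. All 7 genes encode transcription factors of patterning or cell fate. Knockout H2A.Z was within 1 kb of an end at 5 of the 7. Several developmental genes were also among the 10 with the widest INO80 peaks: Skor1 (9825 bp), Zfp503 (7025 bp), Lhx1 (7024 bp), Prdm12 (6461 bp), Hic1 (6243 bp), Gsx1 (6200 bp) and Pou3f3 (5492 bp). Within these wide domains the wild-type-only peaks, held to 0.72 kb by the rule, measured from 195 bp at Pou3f3 to 630 bp at Gsx1. No knockout H2A.Z peak lay under INO80 at Skor1, Prdm12 and Gsx1, where the nearest was 16197, 17915 and 37979 bp away.

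Germ cell lists are given from spermatogonia onwards. Spermatogonial genes had 4 of 30 (13.3%, and 18.2% of the 22 with H2A.Z and INO80, against 6.24% over all such genes). They were the RNA-binding factor gene Lin28a (316 bp, nearest knockout peak 17262 bp away), Lhx1 (293 bp), Egr3 (237 bp) and Gfra1 (168 bp). The product of Gfra1 binds the growth factor GDNF, and the nearest knockout peak was 138 bp from the Gfra1 peak. Meiotic recombination and synapsis genes had 1 of 48 (3.33% of the 30 with H2A.Z and INO80), Sycp2 (191 bp). Sycp2 encodes a lateral element protein of the synaptonemal complex. The piRNA list had 1 of 26 (7.14% of the 14 with H2A.Z and INO80), the RNA-binding protein gene Dazl (148 bp). Dazl was also used above as a germ cell marker, and no other gene of the piRNA list had such a peak. DNA repair genes had 2 of 32 (8.7% of the 23 with H2A.Z and INO80), Brca1 (303 bp) and Mdc1 (171 bp). Among 32 cell cycle genes only Cdk4 had one (150 bp), which is 4% of the 25 with H2A.Z and INO80. The meiotic, piRNA, repair and cell cycle shares rest on 1 or 2 genes each and lie on both sides of the 6.24%. The spermiogenesis list and the cilium list had 0 of 40 each, but only 14 and 30 of these genes had both wild-type H2A.Z and INO80 at an end. Cilium genes that the list leaves out did carry such peaks, such as Inpp5e (193 bp) and Cep131 (152 bp). The Inpp5e peak also lies at an end of Sec16a. Listed markers of somatic testis cells had 2 of 38, which is 16.7% of the 12 with H2A.Z and INO80 against 6.24% over all such genes: the tight junction gene Cldn11 (235 bp) and the smooth muscle myosin gene Myh11 (214 bp). The part of somatic cells in the other counts was not tested.

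**Figure D4:**
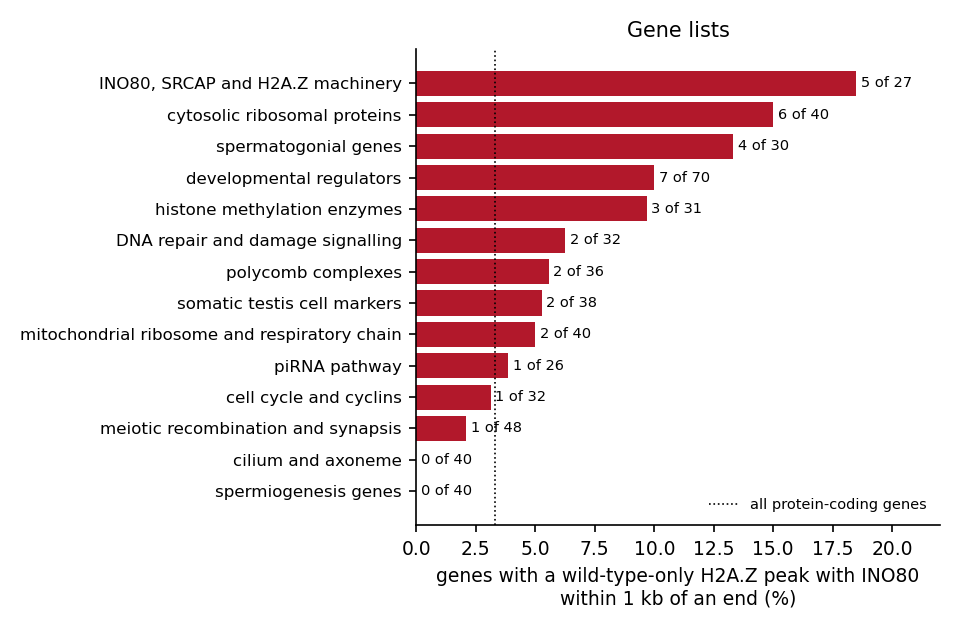
Share of genes in each of 14 selected lists with a wild-type-only H2A.Z peak with INO80 within 1 kb of an end (bars, %, with counts), beside the share over all protein-coding genes (dotted line, 3.29%). The machinery list stands at 18.5% with 5 genes, so each bar rests on few genes.

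Of the genes with 1 or more of these peaks at an end (3.29% of all), 406 (56.5%) also had a knockout H2A.Z peak within 1 kb of an end and 313 (43.5%) had none. Over all 21887 protein-coding genes, with or without H2A.Z, 4.13% had wild-type H2A.Z and no knockout H2A.Z at their ends. This share and the 43.5% cannot be compared, since the rule chose the genes of the latter by a wild-type peak without a knockout partner. Those chosen for the widest peak included the kinase gene Wnk1, the galactosyltransferase gene B4galt2 (686 bp) and the matricellular protein gene Smoc2 (677 bp). The B4galt2 peak also lies at an end of Atp6v0b. At Nacad (chromosome 11, 6605360 to 6606064) the peak lay within a 1359 bp INO80 peak and the nearest knockout peak was 19754 bp away. At Nlrp12, an innate immune receptor gene, the 704 bp peak at the 3′ end exceeded its 186 bp INO80 peak. Farthest from any knockout peak stood the Myc family gene Mycs (579260 bp), the acid-sensing channel gene Asic2 (356434 bp), Mab21l2 (321503 bp), the tachykinin receptor gene Tacr1 (249437 bp) and Lonrf3 (216640 bp).

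**Figure D5:**
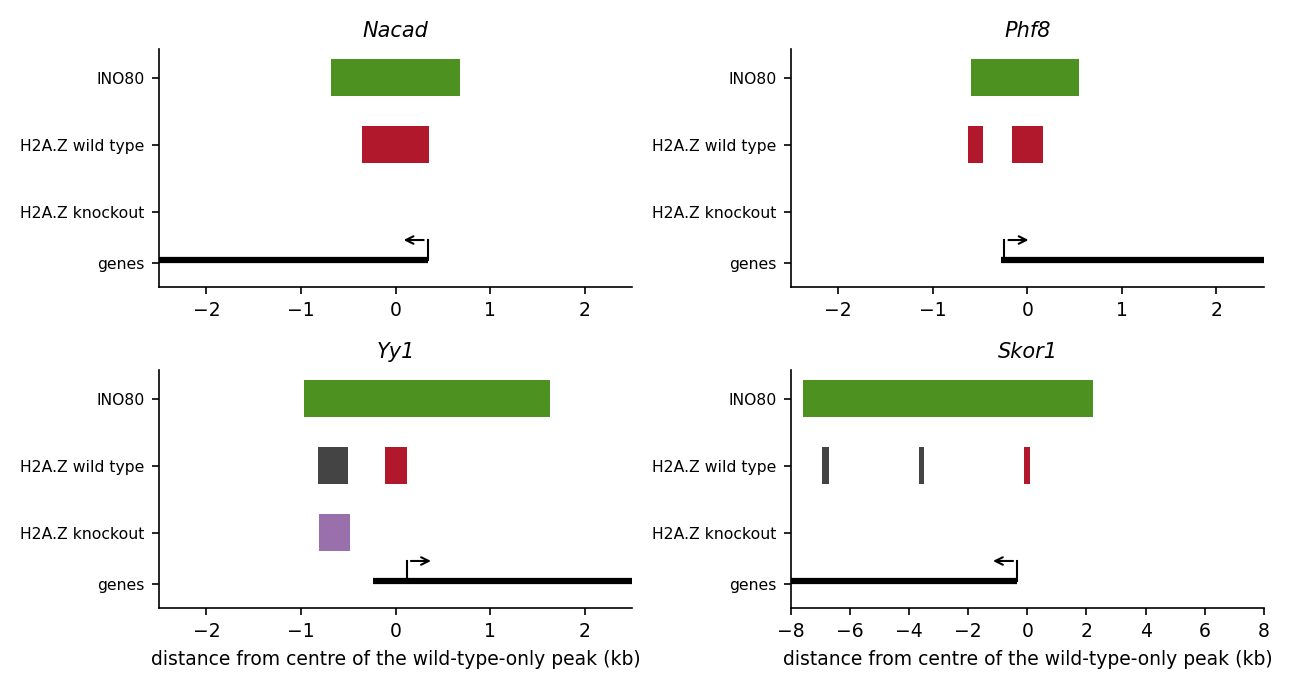
Peaks of the 3 lists around 4 genes, against the distance from the centre of the widest wild-type-only peak (kb); wild-type-only peaks with INO80 are red, other wild-type peaks dark grey, gene bodies black lines, and arrows mark the start sites of the promoter table, which for Yy1 lies inside the annotated gene body. Nacad and Phf8 show no knockout peak in the window, Yy1 shows a neighbouring peak of both genotypes under the same INO80 peak, and at Skor1 a 200 bp peak lies in a 9825 bp INO80 peak.

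On the X chromosome there were 22 such peaks (3.43%, Wilson 95% interval 2.28 to 5.14%) with 21 distinct nearest genes. They included 2 peaks of 321 and 158 bp on both sides of the start site of Phf8, which encodes a histone demethylase, and peaks at Kdm5c, the ubiquitin ligase gene Rlim (318 bp), the cohesin gene Stag2 (314 bp) and the translation factor gene Eif2s3x (345 bp). Maged1 had the widest (688 bp), and the respiratory chain gene Ndufb11 (576 bp) and the ephrin gene Efnb1 (328 bp) were also among the wider ones. No knockout peak lay within 10 kb of 14 of the 22 (63.6%), against 195 of 619 autosomal peaks (31.5%). The knockout list held 435 of its 26199 peaks on the X chromosome, and the part of that number in the longer gaps was not tested. The X-linked share was 6.23% among wild-type-only peaks without INO80 (odds ratio 0.535, 0.309 to 0.895, Fisher's exact test, adjusted p = 0.0226) and 2.57% among shared peaks (odds ratio 1.35, 0.802 to 2.17, adjusted p = 0.302). The first of these did not hold: with width groups the adjusted p was 0.0693 (Mantel-Haenszel), and among peaks of at least 300 bp the odds ratio was 2.595 (Fisher's exact test, adjusted p = 0.143).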

How the data were processed

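ChIP-seq libraries were made by the authors from spermatogenic cells of mouse testes; per the labels' protocols, fixation was in formaldehyde (0.3%, 30 min) and micrococcal nuclease digested the chromatin, so peak outlines also reflect nucleosome positions. The 12 libraries form 6 groups of 2; the 3 ChIP groups each have 1 deposited peak list of positions. The submitters' processing notes name Bowtie2, SAMtools, deepTools, MACS2 and mm10. Not given in the sources used here: their roles, the peak threshold, the control and how libraries were combined. Input libraries were not analysed here, and the unknown depth sets no stated precision.

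The members and lists were chosen with earlier results of these data known. Genes came from RefSeq GRCm38.p6. Strand and start sites came from the RefSeq promoter table of the same build, which held none for chromosome 18. Off that chromosome the nearest gene end had a strand for 83.0% of the 619 peaks, 80.6% of wild-type-only peaks without INO80 and 82.2% of shared peaks. CpG content was taken only where the start site of that gene lay within 1 kb of the peak.

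The width limit was 719 bp. Shares of peaks were tested with the two-sided Fisher's exact test and its conditional 95% interval, and alternatively by Mantel-Haenszel odds ratios over 10 groups of peak width. Benjamini-Hochberg adjustment ran over the 9 comparisons, with a threshold of 0.05. The 9 include that of INO80 width, which is bound to the rule and is given as shares and odds ratios without a p-value. All intervals cover counting error only. Named genes are the 10 widest peaks, the 10 farthest from a knockout peak, the 10 with the widest INO80 peak, up to 5 X-linked genes, up to 4 per list, Ino80, H2az1 and H2az2, and the 5 peaks on each side of 719 bp; Gm, Rik and LOC genes were passed over outside the lists. Some genes that this rule names are not reported here. Sowahd, Surf6, Cox18, Ihh and Prdx6b are named by the last part only, and Rlim, Stag2, Rpl21, Rpl7a, Fau, Rpl27a, Rps26, Inpp5e, Cep131, Hoxa3, Hoxa10, Nkx2-1, Rps18, Rpl6 and the partners of close pairs were chosen after their values were seen. Tests used scipy 1.17.1 and statsmodels 0.14.6 under Python 3.11.15 (with pandas 2.3.3, numpy 2.4.6), and plots matplotlib 3.10.9; the count of 641 was equal with bedtools 2.31.1. The tests were tested on simulated data. NRF1 and RFX strings were also searched and are not reported here.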

Additional observations from a re-analysis of the deposited data

How the results depend on the processing

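No paired analysis was possible because each group has 1 deposited list, and for the same reason no library could be left out. Counting a knockout peak as a partner only when it covered 50% of the wild-type peak gave 1133 peaks, counting knockout peaks within 500 bp as partners gave 425, and a minimum width of 300 bp gave 236; the other 6 settings gave 476 to 930. Of 59 alternative values, 47 kept their call or stayed within 1.5 times the count. The lower X-linked share against wild-type-only peaks without INO80 lost its call with width groups (odds ratio 0.584), with 500 bp windows (0.562) and with partners within 500 bp (0.587), and reversed to 2.595 among peaks of at least 300 bp. Against shared peaks it became a call with partners within 500 bp (1.82) and, in a setting chosen after seeing the data, without a width limit (2.13). The CpG-rich share against shared peaks became a call in the same settings (0.674 and 0.715). With the stricter CpG definition it went the other way (1.24) and was not a call. The odds ratio for a wide INO80 peak against shared peaks, a description here, was 2.22, and 1.11 for peaks whose INO80 peak overlapped no knockout peak, a subset also chosen after seeing the data and narrower in part by its definition. The cause was not tested. The unknown depth and peak threshold limit every absence from a list.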

Other observations

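Of the 217 wild-type-only peaks with a knockout peak within 500 bp, 35 had as nearest neighbour a knockout peak that overlapped no wild-type peak. The share of all knockout peaks that overlap no wild-type peak is not given here, so the 35 have no background beside them. In these pairs the 2 genotypes were each listed with an H2A.Z peak, at gaps from 3 to 497 bp. The gap was 3 bp at the kinase gene Stk40 (wild type 251 bp, knockout 199 bp), 14 bp at Id3 (227 and 157 bp), 19 bp at Hoxc9 (233 and 153 bp), 48 bp at the muscle regulator gene Myod1 (276 and 166 bp) and 65 bp at Elk3 (639 and 212 bp). At Arid1a, which encodes a subunit of the SWI/SNF remodeller, wild-type-only peaks of 163 and 166 bp stood on both sides of a knockout peak of 390 bp that no wild-type peak touched. At Setd1a the wild-type peak (227 bp) and a knockout peak (161 bp) were 147 bp apart under the same INO80 peak of 1253 bp. These genes were chosen after their values were seen, and the cause of such pairs was not tested.

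At 4 genes 3 wild-type-only peaks with INO80 stood within 1 kb of the ends: the mTORC1 substrate gene Akt1s1, Ccdc106, the heat shock factor gene Hsf4 and Mepce, which encodes the capping enzyme of 7SK RNA. The widest of them measured 589, 326, 501 and 326 bp, and no knockout H2A.Z peak lay within 1 kb of an end of any of the 4 genes. At each of them some of the peaks also lay at an end of a neighbouring gene, such as Tbc1d17, Zfp580, Fbxl8 and Zcwpw1. These 4 were likewise chosen after their values were seen. Another 34 genes had 2 such peaks, and 681 had 1.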
